A study of Apostichopus japonicus with 12 samples.

Results

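Sites of histone H3 lysine 9 acetylation (H3K9ac) that were called more often under heat stress than in controls were examined in intestine tissue from Apostichopus japonicus, a sea cucumber. Peaks of the 6 immunoprecipitates were merged into regions wherever they overlapped by at least 1 bp, and a library counted as present in a region that held any of its peaks. A region leaned to heat when it was narrower than 2500 bp, was present in at least 2 of the 3 heat-stress libraries and was present in at most 1 of the 3 control libraries. By this rule 347 of 24534 regions were members, 1.41% of all regions. The members were thus chosen by the presence of peaks in these same libraries, so counts by library are a description and were not tested. For heat stress the water was warmed by 2 °C per hour, starting at 18 °C and ending at 26 °C, and the animals stayed at 26 °C for 48 h. Controls were untreated and were sampled at the same time, and their temperature is not stated in the labels. All 6 samples were intestine tissue precipitated with the same antibody, and a 2% input was kept from each. Whether each sample was a different animal is not stated, and libraries of a group may share a source. In a tissue of several cell types, more cells with the mark and more mark per cell cannot be told apart.

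Acetylation of this lysine is placed by histone acetyltransferases such as GCN5 and removed by histone deacetylases, and in animals it marks the promoters of active genes, usually as compact peaks near the transcription start. The sea cucumber intestine is the organ of digestion and nutrient uptake, and it regresses when the animal aestivates in warm water. Heat stress in animals is known for rapid induction of heat-shock protein genes. Sequence and gene annotation of the assembly named in the peak lists were not used here, so no region was assigned to a promoter or a gene and no sequence is shown.

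The lists differed in length and depth. The 3 controls, in order of replicate number, had 5614, 1828 and 16518 peaks, and the 3 heat libraries had 1180, 929 and 17932. Both libraries numbered 3 thus stood apart, with at least 16518 peaks each, and they are called the long lists below. The caller's genome background, solved from each list, came to 0.730, 0.758 and 1.69 fragments for the controls and 1.39, 1.203 and 1.83 for heat. Absence of a peak therefore means only that the signal did not pass the threshold of that list.

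Most heat-leaning regions also had a peak in a control. Of the 347 regions, 281 (81.0%) had a peak in 1 control, and 66 (19.0%) had none. The regions without any control peak made up 0.269% of all regions. Control replicate 3, the deepest control, was the control present in 259 of the 281 regions, control replicate 1 in 18 and control replicate 2 in 4. Heat replicate 3 was present in 333 members, heat replicate 1 in 218 and heat replicate 2 in 171. The label of heat-leaning therefore describes a count of libraries, and 258 of the members (74.4%) had a peak in both long lists, 1 from each group. Over all 24534 regions 9321 had both. So did 3086 of the 3433 regions of the mirrored rule, with at least 2 controls and at most 1 heat library, called control-leaning below. A peak in both long lists was thus not particular to members.

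The commonest combination was heat replicates 1 and 3 with control replicate 3, which held 138 regions. Heat replicates 2 and 3 with control replicate 3 held another 99. Without a control, 29 regions had heat replicates 1 and 3, 24 had heat replicates 2 and 3, and 9 had heat replicates 1 and 2. All 3 heat libraries were present in 28 regions, and 21 of these also had control replicate 3, 3 had control replicate 1 and 4 had no control. The remaining combinations held 9 regions or fewer. Only 13 members were absent from both long lists. Single libraries decided the count. Under the same numbers of libraries, the rule gave 763 regions without control replicate 1, 826 without control replicate 3, 157 without heat replicate 1, 205 without heat replicate 2 and 42 without heat replicate 3. Leaving out control replicate 2 gave 412.

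**Figure D1:**
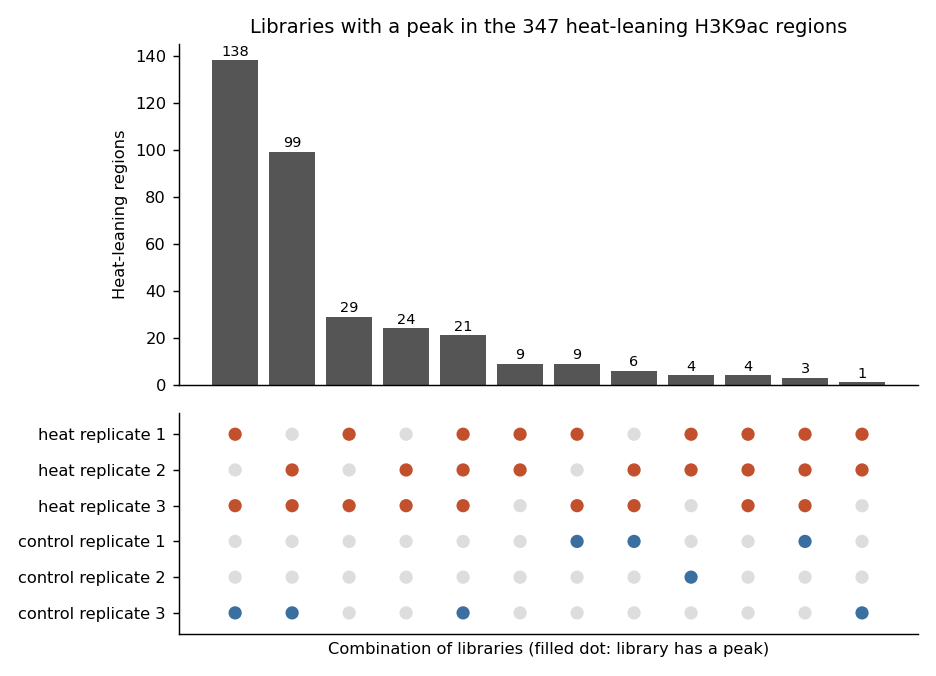
Number of heat-leaning regions for each combination of libraries (bars, y axis in regions), with filled dots under each bar for the libraries that had a peak (heat in orange, control in blue). The leading pair of bars, 138 and 99 regions, both include heat replicate 3 and control replicate 3.

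The members took very different shares of the lists. They held 219 of the 1180 peaks of heat replicate 1 (18.6%, Wilson 95% interval 16.4–20.9%) and 172 of the 929 peaks of heat replicate 2 (18.5%, 16.1–21.1%). They held 352 peaks of heat replicate 3 (1.96%, 1.77–2.18%) and 290 of control replicate 3 (1.76%, 1.57–1.97%). In control replicates 1 and 2 they held 18 peaks (0.321%, 0.203–0.506%) and 4 peaks (0.219%, 0.0851–0.561%). These intervals cover counting error only. The rule asked for heat peaks and limited control peaks, so the shares describe the rule and the list lengths and do not compare conditions. Among the 1299 regions of any width with 2 or 3 heat libraries, 66 had no control, 283 had 1, 504 had 2 and 446 had all 3. Conversely, of 4454 regions with 2 or 3 controls, 319 had no heat library, 3185 had 1, 690 had 2 and 260 had all 3.

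The number of heat-leaning regions was set beside the number that the same criterion gave for each of the 20 ways to put 3 of the 6 libraries in the heat role. The true heat set stood in place 15 of 20, with 14 sets giving more regions and 5 fewer. The mirror image of the rule, at least 2 controls and at most 1 heat library, gave 3433 regions, or 14.0% of all regions. The counts differed most by how many long lists a set held. The 4 sets with both long lists gave 7978 to 9303 regions, the 12 sets with 1 long list gave 312 to 3601, and the 4 sets with none gave 36 to 72. Among the sets with 1 long list, the count was 2786 to 3601 where the second longest list had 5614 peaks, 509 to 575 where it had 1828 and 312 to 347 where it had 1180. Among the sets that held heat replicate 3 but not control replicate 3, the counts ran from 347 to 3601, and the heat set was the lowest.

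With each list cut to its top 929 peaks by significance, the length of the shortest list, the heat set gave 227 regions and stood in place 14 of 20. The sets then ran from 207 to 348 regions with a median of 239, and the 3 controls gave 315. Of the 227 regions, 111 had no control peak, and heat replicates 1 and 2 alone were the commonest combination with 48. These were largely other sites, since only 45 of the 347 members overlapped one of the 227. No p is given for these counts, because the rule that made them used the same libraries.

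**Figure D2:**
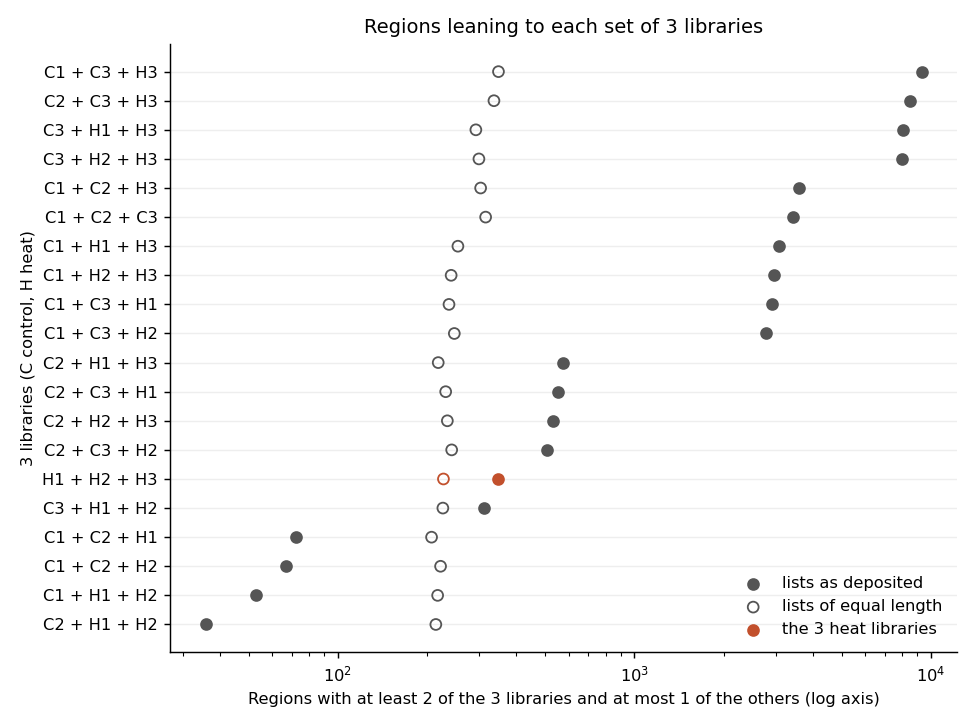
Regions present in at least 2 libraries of a set of 3 and at most 1 of the remaining libraries (x axis, log scale), for all 20 sets (y axis, C for control and H for heat replicates). Filled dots use the lists as deposited and open dots lists of 929 peaks each, and the heat set in orange lies at 347 and 227 regions.

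Heat-leaning regions were of moderate width. Their median width was 617 bp (quartiles 374.5 and 948.5 bp, range 164 to 2352 bp), and together they covered 256 kb. All regions under the same limit had a median of 318 bp, control-leaning regions 811 bp, and regions present in at least 2 libraries of each group, called shared below, 1161 bp under that limit. Merging can only widen a region, and the classes differ in the libraries they hold. The part of merging in this order was not tested. Within the members the median was 370.5 bp for the 62 regions of 2 libraries, 704 bp for the 261 of 3 libraries and 703.5 bp for the 24 of 4 libraries. The single peaks inside them had median widths of 204 bp in heat replicates 1 and 2, 445.5 bp in heat replicate 3 and 432 bp in control replicate 3. In those 4 lists the median over all peaks was 220.5, 223, 341 and 315 bp. Peaks of members were thus narrower than the median of their list in heat replicates 1 and 2 and wider in both long lists. In 305 of the 347 members (87.9%) each library present had a single peak.

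The width limit removed few regions. The widest members were MRZV01001215.1 at 175943–178294 (2352 bp) and MRZV01001234.1 at 132575–134855 (2281 bp). MRZV01001215.1 had peaks from all 3 heat libraries at folds of 4.82, 4.88 and 6.74, and its control replicate 3 peak had the highest fold of the region, 8.93. MRZV01001234.1 showed the same order, with 8.03 in control replicate 3 against 4.94 and 7.80 with heat. Just outside the limit lay MRZV01000617.1 at 57584–60253 (2670 bp) and MRZV01001187.1 at 68038–71228 (3191 bp), both with heat replicates 2 and 3 and control replicate 3. There too control replicate 3 had the highest fold, at 6.93 and 7.59. Folds are not scaled between lists. By percentile within its own list the control replicate 3 peak also stood highest at each of these regions, at 95.3, 92.5, 86.4 and 90.5.

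Within their own lists the members' peaks ranked near the middle in the short heat lists and above it in the long lists. Rank is given as the percentile of the authors' fold, the ratio of fragments to local background at the summit, so the median of a whole list is close to 50. For heat replicates 1, 2 and 3 the median percentile of peaks in members was 49.4, 47.0 and 62.7, and for control replicate 3 it was 65.4. Peaks in shared regions had medians of 51.0, 52.2, 83.5 and 83.1 in the same lists. Peaks found in 1 library alone had medians of 42.2, 49.7, 35.2 and 35.0. Member peaks thus lay between both classes in heat replicate 1 and the long lists, and below both in heat replicate 2. Member peaks above the 90th percentile of a list numbered 18 (8.22%) in heat replicate 1, 15 (8.72%) in heat replicate 2 and 56 (15.9%) in heat replicate 3. In control replicate 3 they numbered 52 (17.9%), the highest share of the 4 lists. A rank above the middle of the long lists was not particular to members. Control-leaning regions had median percentiles of 69.2 in heat replicate 3 and 66.8 in control replicate 3. Of their peaks in these lists, 18.6% and 16.3% lay above the 90th percentile.

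The evidence behind single member peaks was modest in heat replicates 1 and 2, near the level of those whole lists. The median member peak rested on 14 fragments in heat replicates 1 and 2, 28.6 in heat replicate 3 and 23 in control replicate 3, where the value for heat replicate 3 is after the caller's scaling. For all peaks of these 4 lists the medians were 15, 14, 21.7 and 18 fragments. The share of member peaks with a −log10 q of at least 5 was 24.2% and 25% in heat replicates 1 and 2, 83.5% in heat replicate 3 and 78.6% in control replicate 3. For all peaks of these lists the shares were 26.6%, 28.3%, 69.6% and 57.8%, so members exceeded their list only in the long lists. This was not particular to members. In heat replicate 3 and control replicate 3 the shares were 90.7% and 79.7% for control-leaning regions and 95.1% and 89.3% for shared regions. A −log10 q of at least 5 in every heat library present was reached by 64 members (18.4%), 57 of the 281 with a control and 7 of the 66 without one.

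**Figure D3:**
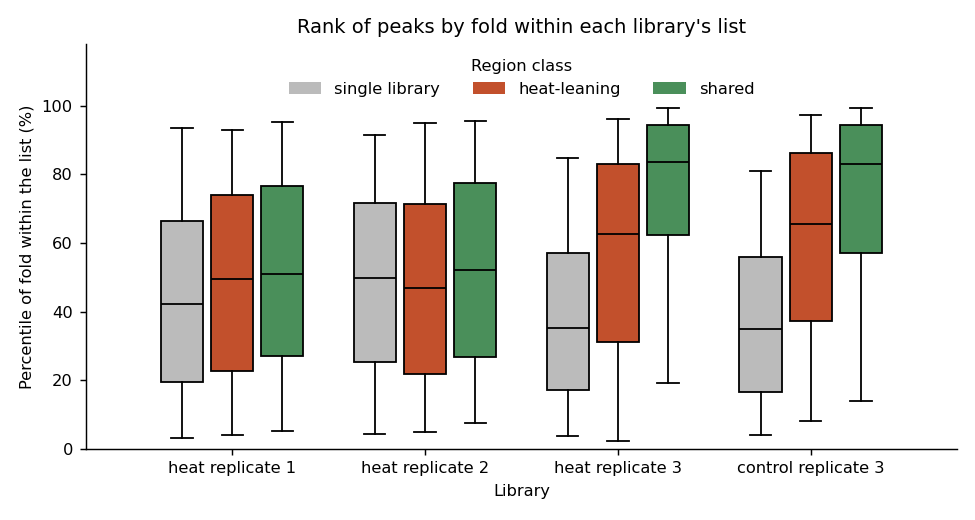
Percentile of fold within the list (y axis, %) for peaks of single-library, heat-leaning and shared regions in the 3 heat libraries and control replicate 3 (x axis), where boxes give quartiles, lines the median and whiskers the 5th and 95th percentiles. Heat-leaning medians are 49.4, 47.0, 62.7 and 65.4, and the classes differ most in the long lists.

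Where both long lists had a peak, neither ranked the members higher as a group. In the 258 members with both, the highest-fold peak reached a median percentile of 69.9 in control replicate 3, against 68.7 in heat replicate 3. The percentile was higher in heat replicate 3 in 125 of the 258 (48.4%, Wilson 95% interval 42.4–54.5%). Over all 9321 regions with both libraries this share was 50.8%, and in control-leaning regions 50.5%. The lists are of similar length, and a single library stands for each group, so no test was made. Single members lay far from the diagonal on both sides. MRZV01000264.1 at 232474–234040 stood at percentile 8.48 in control replicate 3 but at 98.7 with heat, at folds of 2.86 and 12.6. MRZV01000394.1 at 149059–149610 stood at 0.303 and 89.5. In the other direction MRZV01000136.1 at 18876–19415 stood at 93.2 in control replicate 3 but at 2.41 in heat replicate 3, although all 3 heat libraries had a peak there. MRZV01001354.1 at 184–953 stood at 99.6 and 8.83. These 4 were chosen after their values were seen.

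**Figure D4:**
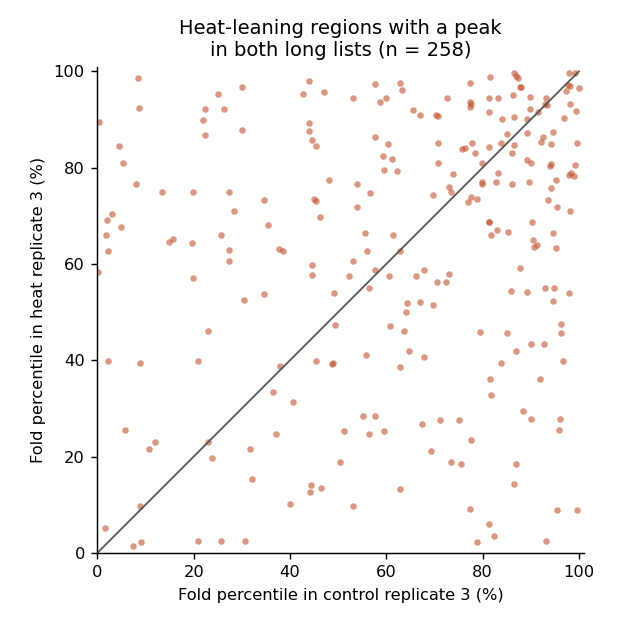
Percentile of the highest fold in control replicate 3 (x axis, %) and heat replicate 3 (y axis, %) for the 258 heat-leaning regions with a peak in both, with the line of equality. Points lie on both sides, with 125 above the line.

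The 66 regions without a control peak included 4 that had all 3 heat libraries, 0.0163% of all regions. At MRZV01000755.1, 170533–172523, the highest-fold peaks rested on 24, 21 and 23.7 fragments over local backgrounds of 3.76, 4.15 and 5.25 in heat replicates 1, 2 and 3. At MRZV01000041.1, 435200–436135, they rested on 15, 16 and 22.7 fragments over 2.59, 2.17 and 6. At MRZV01000084.1, 759153–759639, the fragments were 15, 12 and 24.7. MRZV01001018.1, 136614–136929, had 17, 11 and 20.7. In all 4 regions the peaks of heat replicates 1 and 2 rested on fewer than 25 fragments, and the mean fold percentile over the 3 heat libraries lay between 44.5 and 51.3. MRZV01001018.1 had a second member, at 136024–136500, only 113 bp away, with folds of 4.36 in heat replicate 1 and 2.31 in heat replicate 3 and no control peak.

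The highest-ranked control-free regions had 2 heat libraries. MRZV01000233.1 at 227070–227305, only 236 bp wide, had folds of 7.88 in heat replicate 2 (17 fragments, percentile 98.5) and 9.80 in heat replicate 3 (30.6 fragments, percentile 95.1). MRZV01000022.1 at 1083574–1083782 had folds of 7.95 in heat replicate 1 (21 fragments, percentile 99.0) and 8.04 in heat replicate 3 (21.7 fragments, percentile 87.9). MRZV01000031.1 at 938113–938819 had a fold of 10.5 in heat replicate 3 and 5.32 in heat replicate 2. MRZV01002042.1 at 22458–22943 had 6.59 and 6.90 in these libraries. Next among the pairs of heat replicates 1 and 3 were MRZV01000135.1 at 682792–683266 (folds 5.10 and 4.94) and MRZV01001975.1 at 64757–64920 (5.66 and 4.15), the latter the narrowest member at 164 bp.

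Of the pairs of heat replicates 1 and 2, MRZV01000483.1 at 39568–40460 ranked first, with folds of 7.40 on 24 fragments and 4.89 on 20 fragments. MRZV01000019.1 at 896729–897082 had folds of 4.95 and 4.94, and MRZV01002502.1 at 15626–15899 had 5.32 and 3.85. Neither long list had a peak at these 3 sites. Without a control, the median percentile in heat replicate 3 was 19.2 for the 29 regions shared with heat replicate 1 and 41.8 for the 24 shared with heat replicate 2, against 70.1 and 64.7 for the combinations that also had control replicate 3. In heat replicate 2 the order was the opposite, with a median of 62.1 for the 24 control-free regions and 45.8 with control replicate 3. In heat replicate 1 the medians were 41.1 for the 29 control-free regions and 48.7 with control replicate 3.

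Members with a single control peak included the highest-ranked of all. MRZV01000071.1 at 184316–185286 had folds of 7.26 in heat replicate 2 and 11.2 in heat replicate 3, and 5.96 in control replicate 3, at percentiles of 97.3, 97.6 and 77.4. MRZV01000054.1 at 139545–140635 stood at percentiles 98.5, 94.9 and 98.8 in heat replicates 1, 2 and 3 and at 81.6 in control replicate 3. MRZV01001822.1 at 159267–159513 had folds of 7.94 and 9.63 in heat replicates 1 and 3, and its control replicate 3 peak had 6.33. At these 3 sites every heat peak had a higher percentile than the control peak, in a set ordered by the heat percentiles themselves.

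With control replicate 1 the first was MRZV01000578.1 at 767658–767943, where 11 fragments over the genome background gave a fold of 6.94 in that control and 36.5 fragments a fold of 9.39 in heat replicate 3. Heat replicates 1 and 2 had folds of 6.23 and 4.89 there, both below that of the control. The percentiles were 91.6, 68.3 and 93.8 in heat replicates 1, 2 and 3 and 85.0 in control replicate 1. By rank within its list, only heat replicate 2 thus lay below the control. MRZV01000719.1 at 248673–248883 had folds of 5.32 and 7.71 in heat replicates 1 and 3 and 4.08 in control replicate 1, and MRZV01000775.1 at 362369–362607 had 5.13, 6.65 and 6.13. With control replicate 2 there were only 4 members, all with heat replicates 1 and 2. MRZV01000642.1 at 146390–147111 had folds of 5.07 and 6.05 with heat and 5.69 in control replicate 2.

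The other 3 members with control replicate 2 lay on a high local background, more than 10 times the genome background of a library. At MRZV01000189.1, 101160–101479, the backgrounds were 14.0, 12.5 and 11.6 fragments in heat replicates 1 and 2 and control replicate 2, and the folds 2.87, 3.33 and 2.69. At MRZV01001394.1, 18977–19226, they were 28.7, 27.0 and 19.1, and the folds 3.06, 2.75 and 4.34. In all, 9 members (2.59%) had a peak on such a background, against 0.587% of all regions. Of the 13 members absent from both long lists, 6 were among them. Such peaks made up 16 of the 1180 in heat replicate 1 and 33 of the 929 in heat replicate 2. In the long lists they were rarer, with 55 of 17932 in heat replicate 3 and 38 of 16518 in control replicate 3. By the rule every member had a peak in heat replicate 1 or 2, so members and all regions are not alike here. At MRZV01000567.1, 297036–297253, there were 147 and 148 fragments in heat replicates 1 and 2 over 77.4 and 72.5, for folds of only 1.89 and 2.03. MRZV01000062.1 at 49526–49849 had 115, 124 and 158 fragments in heat replicates 1, 2 and 3 and 76 in control replicate 1, over 54.5, 51.4, 94.0 and 32.5. The part of the background in these calls was not tested.

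Depth is a limit on how much the missing control peaks say. Each heat peak of a member was carried over to a control at the same ratio of fragments to local background and the same local background relative to the genome, and its Poisson −log10 p there was compared with the lowest in that control's list. This takes the immunoprecipitations to be equally efficient, which was not tested. List length did not follow the genome background, with 5614 peaks at 0.730 in control replicate 1 and 1180 at 1.39 in heat replicate 1. Of the 66 control-free regions, every heat peak would have reached the list of control replicate 3 in 62, of control replicate 1 in 20 and of control replicate 2 in 23. In 11 and 14 of them no heat peak would have reached the lists of control replicates 1 and 2. Every heat peak would have reached all 3 control lists in 19 of the 66, but in none of the 4 regions with all 3 heat libraries. Among the 19 were the high-ranked MRZV01000233.1, MRZV01000022.1, MRZV01000031.1 at 938113–938819 and MRZV01002042.1. The 19 also held 297036–297253 on MRZV01000567.1 and 201596–201967 on MRZV01000671.1, both on a high local background. Their mean heat percentiles were only 0.444 and 8.31, so reaching the control lists did not require a high fold. In the other 47, at least 1 heat peak would have stayed under the threshold of a control at its depth.

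The members were scattered over scaffolds. They lay on 300 of the 2176 scaffolds with any region, 260 scaffolds held 1 member, 34 held 2, 5 held 3 and 1 held 4. The scaffold with 4 was MRZV01000031.1, where the members were 4 of 61 regions. They lay at 445780–446883, 618747–620588, 922294–922577 and 938113–938819. The first pair had heat replicates 1 and 3 with control replicate 3, the next had heat replicates 1 and 2 alone and the last heat replicates 2 and 3 alone, so no combination ran along the scaffold. MRZV01000567.1, chosen after its values were seen, held 3 members among 11 regions. At 182038–183216 and 183298–183819 on that scaffold, 81 bp apart, one member had heat replicate 1 and the next heat replicate 2, each with heat replicate 3 and control replicate 3. This was the closest pair of members. Of the 87 members that shared a scaffold with another, 14 lay within 10 kb of it, and the median distance was 93456 bp.

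Most heat-leaning regions did not border shared regions. A shared region was found on the scaffold of 185 members (53.3%), at a median distance of 81786 bp from edge to edge (quartiles 17126 and 226956 bp). The medians were 95240 bp for control-leaning regions, 69072 bp for regions of a single library and 83380 bp from one shared region to the next. Within 10 kb of a shared region lay 36 members, 10.4% of all members, compared with 5.97% of control-leaning, 10.5% of single-library and 7.79% of shared regions. Within 1 kb lay 16 members (4.61%), compared with 2.07%, 3.00% and 2.63%. These 16 included 7 of the 66 control-free members and 9 of the 281 with a control. The median distance of the 39 control-free members with a shared region on their scaffold was 36887 bp, and of the 146 with a control 85744 bp. No test was made of these differences, since regions are not replicates of a condition.

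The 3 nearest members were all control-free. MRZV01000019.1 at 896729–897082 lay 126 bp from a shared region at 897209–898089 that was present in 5 libraries. MRZV01000324.1 at 831002–831276, with folds of 4.35 in heat replicate 2 and 5.95 in heat replicate 3, lay 163 bp from a shared region at 831440–832024. MRZV01001725.1 at 32871–33048, with folds of 5.27 in heat replicate 1 and 3.21 in heat replicate 3, lay 164 bp from one at 33213–33686. The farthest, MRZV01000028.1 at 247304–247698 and MRZV01000016.1 at 915544–915915, lay 1051150 and 715456 bp away. At the latter control replicate 3 had a fold of 19.3 on 51 fragments, near the top of its list, and heat replicates 2 and 3 had 4.40 and 10.5. Broad regions of 2500 bp or more were rarer neighbours, with 3 members within 1 kb and 6 within 10 kb. The latter were 1.73% of members, compared with 1.75% of control-leaning, 1.47% of shared and 3.44% of single-library regions. Broad regions were few, since 24330 of all 24534 regions were under that width.

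**Figure D5:**
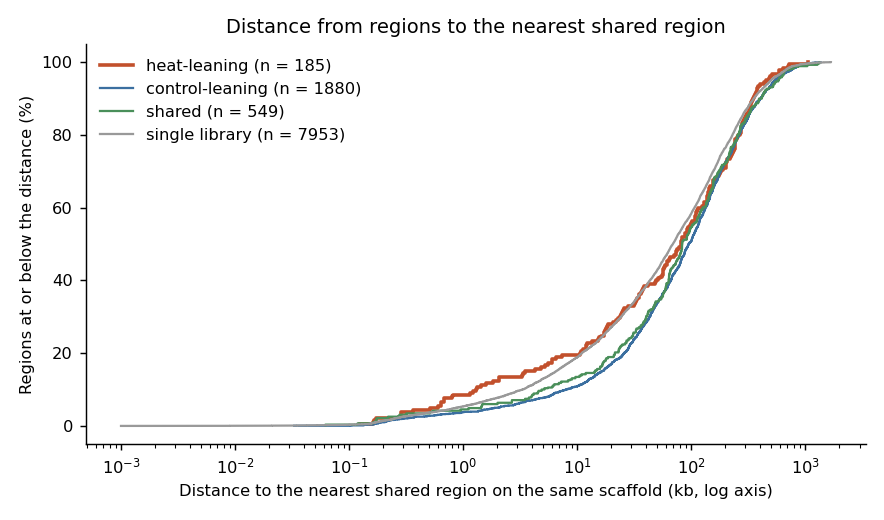
Cumulative share of regions (y axis, %) by distance to the nearest shared region on the same scaffold (x axis, kb, log scale), for regions whose scaffold holds one. At 10 kb the heat-leaning line (n = 185) stands at 19.5%, the single-library line at 18.8% and the control-leaning line at 10.9%.

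Overlap of peaks was the merging rule, so its share within members is no finding. In 4 of the 347 regions the peaks of different heat libraries met only through the control peak. At least 1 base was covered by every library present in 329 regions (94.8%), with a median common stretch of 170 bp. The closest summits of different heat libraries were a median of 66 bp apart (quartiles 18 and 171 bp), and within 100 bp in 211 regions (60.8%). In shared regions under the width limit this median was 75 bp, and between control peaks of control-leaning regions 54 bp. In the 66 control-free members it was 55 bp.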

How the data were processed

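H3K9ac ChIP-seq of 3 control and 3 heat-stress intestine samples, each with an input, was available as 6 peak lists with 44001 peaks. Tools listed per the submitters' processing notes are MACS2 2.1.1.20160309, SAMtools 1.3.1 and BWA. No genome build is named there or in the lists. Each list gives, as deposited by the authors, a fold (the ratio of fragments to local background at the summit, with a pseudocount of 1), a −log10 p, a −log10 q and a score. The deposited score is the whole part of 10 times −log10 q in 100% of peaks. Each list belongs to 1 sample. The lists were used as deposited, and coordinates are 1-based.

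Computed here were merged regions, presence per library, classes, widths, mid-rank percentiles of fold within each list, and edge-to-edge distances on a scaffold. Fragments and local background were solved from fold and −log10 p within a tolerance of 0.002, and whole fragments came out for 100% of peaks. For heat replicate 3 this holds after a scaling of 0.98776 per fragment. That scaling was chosen because it gave the most whole fragments, so the 100% partly reflects the choice. The merging and the solving were tested on simulated data (2000 peaks per simulation, 100% recovered, and 200 of 200 planted regions found). The solver was given the scaling there, so its choice was not tested. Local backgrounds as high as those of the high-background members were not simulated. Intervals are Wilson 95% intervals. Python 3.11.15, numpy 2.4.6, pandas 2.3.3 and scipy 1.17.1 were used. No p-value was computed, since the peaks that chose the members are the measurement. Members and lists were chosen with earlier results of these data known. Named regions were those with the highest mean heat percentile in each class of libraries, those nearest to and farthest from shared regions, all with 3 heat libraries and no control, and those at the width limit. MRZV01000567.1, MRZV01000062.1 and the regions that differed most between the long lists were added after their values were seen. Gene annotation, genome sequence and read files were not used here.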

Additional observations from a re-analysis of the deposited data

How the results depend on the processing

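The value as reported was 347 regions on 300 scaffolds, with a median width of 617 bp, a median distance of 81786 bp and a median heat percentile of 54.1. A −log10 q of at least 5 gave 124 regions, 120 scaffolds, 686.5 bp, 107837 bp and 79.97. Only 72 of the 347 members overlapped one of these 124. Lists of equal length gave 227 regions, 877 bp, 94737 bp and 69.2. Merging peaks within 500 bp gave 880 bp and 88909 bp. A reciprocal overlap of 50% gave 212 regions, 197 scaffolds, 474.5 bp and 136802 bp. Regions narrower than 1000 bp gave 485 bp and 96588.5 bp. Allowing no control gave 66 regions, 62 scaffolds, 381.5 bp, 36887 bp and 43.7. Requiring all 3 heat libraries gave 28 regions on 28 scaffolds at 703.5 bp. Defining shared as all 6 libraries moved the distance to 152342 bp. Leaving out both long lists, an alternative chosen after seeing the data, gave 131 regions, 119 scaffolds and 434 bp, and only 38 of the 347 members overlapped one of them. Leaving out 1 library at a time gave 42 to 826 regions, 42 to 585 scaffolds, 517.5 to 836 bp, 83913 to 121631 bp and percentiles of 50.3 to 58.5. There the rule itself set whether the count rose or fell. Percentiles in every setting are ranks in the full lists, so settings that keep only the most significant peaks select for higher percentiles. Beyond this, the causes of these moves were not tested.

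Settings that moved the count by less than 1.5 times were a fold of at least 3 (317), a common −log10 p (344), merging within 500 bp (324), a limit of 1000 bp (265), no width limit (349) and high local background left out (338). No paired analysis was possible because no value rests on a test, and the labels do not say that replicate numbers pair the samples. Depth limits what absence shows: at the median, a listed peak rested on 12 to 18 fragments in the controls. Each group had 3 libraries of unequal depth, with lists of very unequal length.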
